A study of Mus musculus with 21 samples.

Results

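The immediate early genes are genes that cells switch on within minutes of a growth factor or stress signal, without making new protein first. The 10 genes described here are Fos, Fosb, Fosl1, Jun, Junb, Egr1, Egr2, Ier2, Ier3 and Atf3, taken as a known family by their names in the array files. All 10 were among the 21372 genes tested. They were measured on 21 dual-channel Agilent arrays of organoids from the mouse small intestine, that is, crypt epithelium kept as a gel culture. Every culture carried a doxycycline-inducible, N-terminally truncated human beta-catenin, the effector of Wnt signalling, with the reverse transactivator M2-rtTA expressed from the ROSA26 locus, which is not restricted to one cell type. Every culture was also grown with EGF, Noggin and R-spondin in the medium.

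Cultures kept in doxycycline received vehicle (7 arrays, letters A to G), 2 µM Compound 2 (3 arrays, A to C), 2 µM Compound 9 (3 arrays, A to C) or 2 µM Compound 6 (4 arrays, D to G) for 24 h. A further group of 4 arrays (D to G) came from cultures without doxycycline for the last 24 h. The labels describe the compounds as close analogues of a trisubstituted pyridine series that inhibit the Mediator-associated kinases CDK8 and CDK19, and doxycycline removal as lowering Wnt signalling. Each sample was labelled with Cy3 and hybridised against the same Universal Mouse Reference RNA in Cy5. Values below are log2 ratios of sample over reference, and a change is the difference of such ratios between a group and the vehicle arrays with the same letters. The letter sets A to C and D to G were scanned separately, so letter set and scan cannot be told apart. All 12 markers of intestinal epithelium stood well above background on all arrays, and the number of arrays limits the precision.

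As background, growth factor receptors such as the EGF receptor act through Ras and the MAP kinases on factors such as Elk1 and SRF, which sit on the promoters of Fos, Egr1, Egr2 and Ier2. The Fos and Jun proteins pair to form the transcription factor AP-1, Egr1 and Egr2 are zinc finger factors, and Atf3 is a stress-induced repressor of the ATF/CREB family. Ier2 and Ier3 encode short proteins outside these families. Their RNAs are short-lived, so a sample taken after 24 h holds the running level and not the first burst. CDK8 has been described as a coactivator at several of these genes after serum stimulation, and in the intestine the AP-1 genes are known for their response to injury and to Wnt-driven growth.

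Promoter sequences are shown for 4 members, because Fos and Atf3 moved with the letter, Fosb with treatment, and Egr2 with Compound 6. They are RefSeq sequences of the mouse build GRCm38.p6, written 5′ to 3′ on the gene's strand. The first 3 are the 250 bases before the gene's start, and capitals mark the motifs found by an exact letter search of both strands. The Egr2 stretch is 30 bases, and its capitals mark the CArG box, the binding motif of SRF.
Fos, chr12:85473640-85473889, plus strand: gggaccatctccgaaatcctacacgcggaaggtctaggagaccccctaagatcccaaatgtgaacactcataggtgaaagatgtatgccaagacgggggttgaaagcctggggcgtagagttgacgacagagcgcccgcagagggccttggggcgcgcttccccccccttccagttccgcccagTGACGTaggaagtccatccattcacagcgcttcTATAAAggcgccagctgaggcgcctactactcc
Fosb, chr7:19310046-19310295, minus strand: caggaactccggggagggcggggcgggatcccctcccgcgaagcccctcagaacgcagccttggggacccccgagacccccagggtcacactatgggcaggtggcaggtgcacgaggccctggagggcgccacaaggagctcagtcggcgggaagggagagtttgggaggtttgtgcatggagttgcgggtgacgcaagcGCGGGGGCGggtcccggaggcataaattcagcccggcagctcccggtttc
Atf3, chr1:191183334-191183583, minus strand: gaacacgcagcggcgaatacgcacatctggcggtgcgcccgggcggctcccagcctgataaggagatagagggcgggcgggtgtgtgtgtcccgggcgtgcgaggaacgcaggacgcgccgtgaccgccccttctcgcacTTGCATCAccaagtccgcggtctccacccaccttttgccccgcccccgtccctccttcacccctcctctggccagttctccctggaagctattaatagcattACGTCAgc
Egr2, chr10:67537782-67537811, plus strand: gccctgttcctcagtCCATATATGGgcagc

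Of the 10 members, 7 had an entry in the RefSeq promoter table, which holds 32851 promoters from 250 bases before to 50 after the start. Fosl1, Egr1 and Ier2 had no entry and were not searched, and neither were bases outside that window. Each of the motifs that follow was searched on both strands over that window, and a match is a description of letters, not of a bound site. TGACGT, the core of the CREB and ATF site, was in the promoters of Fos, Egr2 and Atf3 and in 7.51% of all promoters. The CArG box was in that of Egr2 and in 1.63% of all. GCGNGGGCG, the EGR motif, was in that of Fosb and in 5.55% of all. TGATGCAA, the ATF4 composite motif, was in that of Atf3 and in 0.895% of all. TATAAA was in those of Fos and Junb and in 13.6% of all. The AP-1 motif TGANTCA (7.81% of all promoters) and the TCF motif CTTTGAT (3.73% of all) were in none of the 7.

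Each member had 1 probe, of 60 bases, and the files give its place in the mouse build mm9. The Fos probe lies on chromosome 12 (86817900 to 86817959) and the Fosb probe on chromosome 7 (19888168 to 19888227). The Fosl1 probe lies on chromosome 19 (5455496 to 5455555) and the Egr2 probe on chromosome 10 (67004798 to 67004857). The Atf3 probe lies on chromosome 1 (192994547 to 192994606). Whether these stretches are coding or untranslated was not analysed here. The Fos probe was printed in 10 spots on each array, and the SD between those spots ran from 0.037 to 0.132 on the log2 scale (median 0.0743). For the other 9 members 1 spot stands behind each value. All members but Egr2 stood well above background on all 21 arrays, and Egr2 did so on 8.

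**Figure D1:**
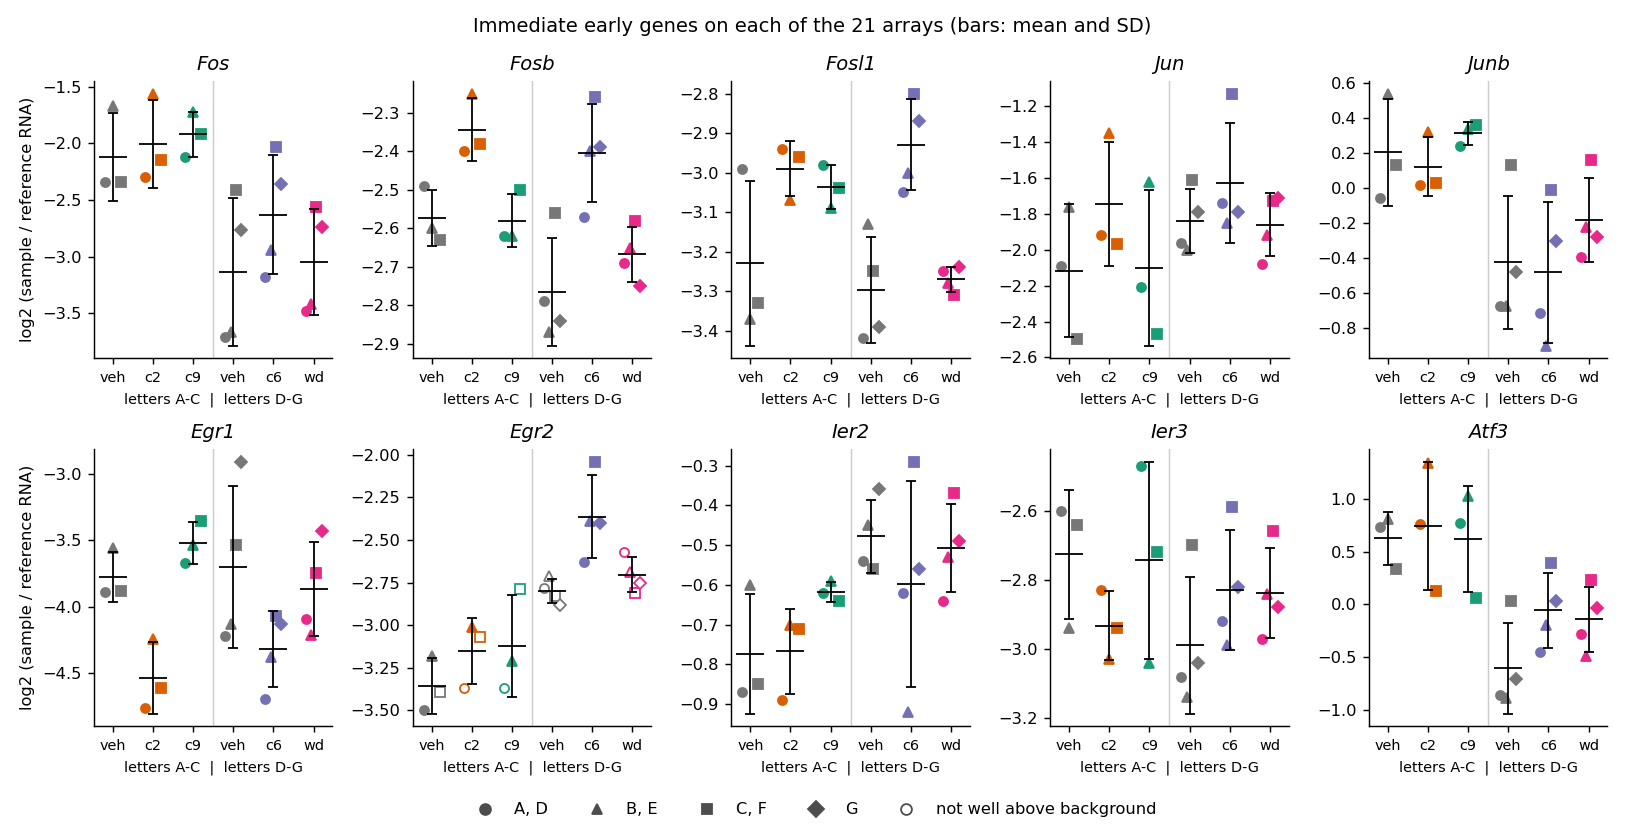
Log2 ratio of sample over reference RNA (y axis) for each member on each of the 21 arrays, by group (x axis: veh, vehicle; c2, c9 and c6, Compounds 2, 9 and 6; wd, doxycycline withdrawn), with marker shapes for the letters, open markers for spots not well above background, and black bars for the mean and SD. Fos on the vehicle arrays runs from -3.71 to -1.67, and Egr1 with Compound 2 lies below all 3 vehicle arrays of the same letters.

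With Compound 6, Fosb and Fosl1, both partners of Jun in AP-1, rose by about 1.3-fold, and Egr2 rose from background to a low level. Fos, the founding AP-1 gene, and Atf3 were higher in 4 of 4 letters, by 0.51 ± 0.31 and 0.55 ± 0.27 (SE), and Egr1 was lower in 4 of 4, by -0.62 ± 0.24. These 3 did not pass limma's test with the set term, and passed it with the letter as a block. So 3 of the 10 members rose and 0 fell with the set term, where 24.8% of all genes tested passed. With the letter as a block 6 passed, 5 of them higher, where 41.3% of all genes did. The members' median change was 0.29, against -0.0349 over all genes tested. The letters are used as a block because arrays of the same letter deviated together in every group.

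Fosb on the Compound 6 arrays D, E, F and G was -2.57, -2.40, -2.26 and -2.39, and on the vehicle arrays of those letters -2.79, -2.87, -2.56 and -2.84. Compound 6 was higher in each letter, and the groups overlapped only at vehicle F and Compound 6 D. The fitted change was 0.36 ± 0.077, or 1.28-fold, with a limma adjusted p of 0.00241. Fosl1, encoding Fra-1, was -3.05, -3.00, -2.80 and -2.87 with Compound 6 and -3.42, -3.13, -3.25 and -3.39 with vehicle. Here the groups did not overlap. Its change was 0.37 ± 0.084, or 1.29-fold, with a limma adjusted p of 0.00375. With the Cy3 channel alone, both missed the threshold (0.22 and 0.25, limma adjusted p 0.0509 and 0.0566).

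Egr2 has its CArG box in the 30 bases printed above. On the Compound 6 arrays it was -2.63, -2.39, -2.04 and -2.40 and stood well above background on 4 of 4. On the vehicle arrays D to G it was -2.78, -2.71, -2.83 and -2.88, on none of them well above background. The groups did not overlap, and Compound 6 F was the highest array. The fitted change was 0.43 ± 0.13 (95% interval 0.17 to 0.70, limma adjusted p 0.018). On the Cy3 values normalised per channel the mean was 1.35-fold higher, a ratio with no allowance for the spread. That ratio sets the Compound 6 mean against, on each vehicle array, the higher of the dimmest signal well above background and the probe's own signal. The vehicle mean was 6.85 on the log2 scale with and without that floor. As no vehicle array here was well above background, the vehicle level is only a bound. The offset added before the logarithm compresses dim probes, and Agilent's own log ratios gave 1.95 for the same difference and the Cy3 channel alone 0.33. Without Compound 6 F the call was lost (0.32, limma adjusted p 0.0759), as it was without vehicle G (0.41, limma adjusted p 0.0536) and without every letter F array (0.32, limma adjusted p 0.0874).

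Fos on the vehicle arrays D, E, F and G was -3.71, -3.66, -2.41 and -2.76, and with Compound 6 -3.18, -2.94, -2.03 and -2.36. Arrays F and G were high and D and E low under both treatments, so the groups overlapped while each letter differed in the same direction, by 0.38 to 0.72. The limma adjusted p was 0.251 with the set term and 1.66e-04 with the letter as a block. Atf3 was -0.86, -0.89, 0.032 and -0.71 with vehicle and -0.45, -0.20, 0.39 and 0.037 with Compound 6. Vehicle F stood above the other 3 vehicle arrays and inside the Compound 6 range. The letters differed by 0.36 to 0.74, with a limma adjusted p of 0.149 with the set term and 7.68e-04 with the block. Without vehicle F the Atf3 change was 0.76, with a limma adjusted p of 0.0329 and the set term. Of the 8 fits that left out 1 array, that 1 passed. The change ran from 0.40 to 0.76 over the 8, with a limma adjusted p up to 0.366.

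Egr1, which encodes a zinc finger factor induced through SRF, went the other way from its relative Egr2. It was -4.22, -4.13, -3.54 and -2.91 on the vehicle arrays D to G and -4.69, -4.38, -4.07 and -4.13 with Compound 6. The groups overlapped, and letter G differed most (-1.22) and E least (-0.24). The limma adjusted p was 0.0644 with the set term and 0.00118 with the block. Without vehicle D or vehicle E it passed with the set term too (-0.79 and -0.76, limma adjusted p 0.0274 and 0.0409). Of the 8 fits that left out 1 array, these 2 passed. The change ran from -0.79 to -0.35 over the 8, with a limma adjusted p up to 0.256.

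The other 4 members gave no call with Compound 6 in either fit. Jun, the main partner of Fos, differed by 0.21 ± 0.20 (95% interval -0.20 to 0.63). Junb, a Jun relative, differed by -0.060 ± 0.20 (-0.47 to 0.35). Ier2 differed by -0.12 ± 0.10 (-0.34 to 0.095), with letters from -0.47 to 0.28. Ier3, a survival gene that also answers to NF-kB, differed by 0.16 ± 0.13 (-0.10 to 0.42) and was higher in 4 of 4 letters.

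**Figure D2:**
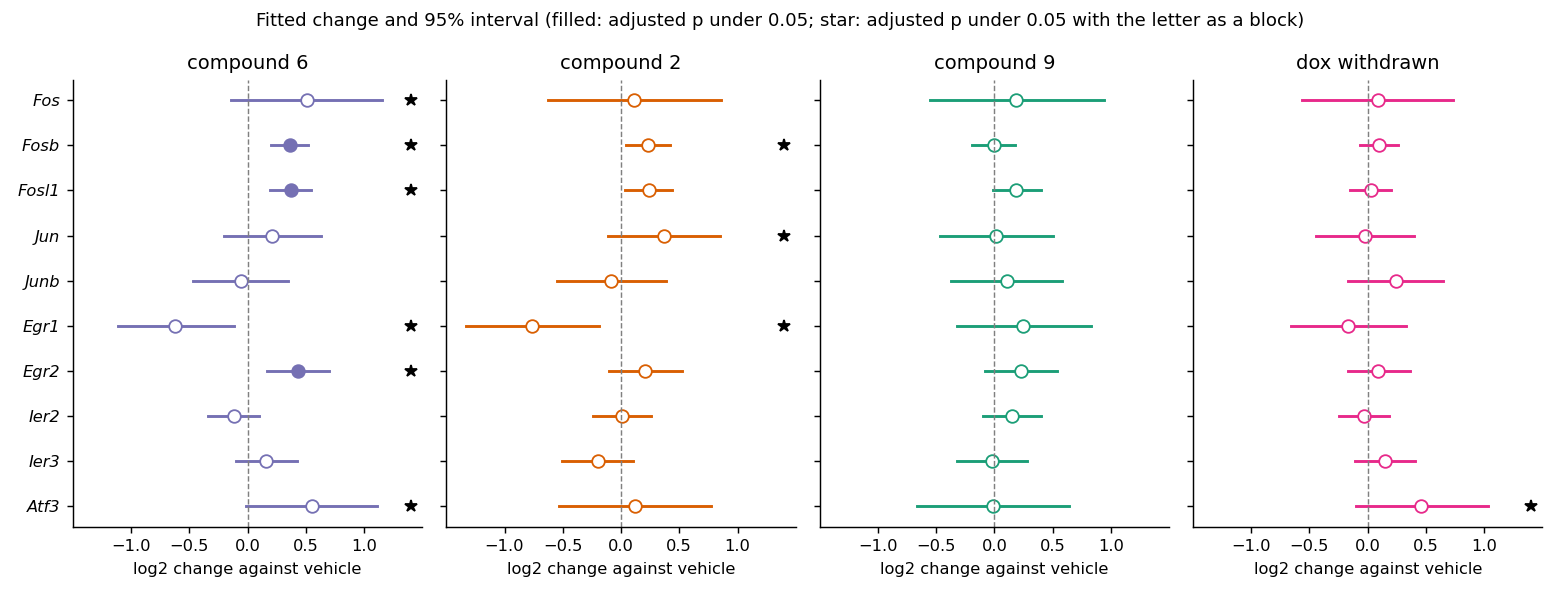
Fitted log2 change against vehicle (x axis, with 95% intervals from the fit with the set term) for each member in 4 comparisons, with filled points for adjusted p under 0.05 and a star where the fit with the letter as a block passed. Compound 6 has 3 filled points and 6 stars, Compound 2 has 3 stars, withdrawal 1 star and Compound 9 none.

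The arrays of letters D to G lay on 3 slides that each held more than 1 group, and the values within a slide rest on 1 to 3 arrays a side. For Compound 6 against vehicle, Fosb differed by 0.11, 0.47 and 0.58 within the 3 slides, Fosl1 by 0.28, 0.20 and 0.60, and Egr2 by 0.17, 0.31 and 0.84. Fos differed by -0.11, 1.01 and 0.73 and Atf3 by -0.036, 0.81 and 1.09, so neither kept its direction within the first of these slides, which held vehicle D and F but Compound 6 D alone. Egr1 was lower within each slide, by -0.81, -0.12 and -1.16. The second slide held Compound 6 E and G but vehicle E alone, and the third held Compound 6 F and vehicle G. So these values within a slide mix treatment with letter. With the slide as a random block the same 3 members passed as with the set term.

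Markers of other cell types also differed with Compound 6. Of the 10 leukocyte markers tested, 7 were higher (median 0.23), among them Csf1r by 1.05 ± 0.15 (limma adjusted p 8.19e-05) and Itgam by 0.55 ± 0.082 (limma adjusted p 1.28e-04). Of the 9 fibroblast markers tested, 4 were higher (median 0.22), among them Vim by 0.55 ± 0.11 (limma adjusted p 0.00144). The summed Cy3 intensity of the leukocyte list was 16600 to 25100 with Compound 6 and 10300 to 18700 on the vehicle arrays D to G, and that of the fibroblast list 5190 to 6520 against 4400 to 5530. Of the 12 epithelial markers 2 were higher and 1 was lower. Pdgfra and Lum of the fibroblast list, and Cdh5 and Emcn of the endothelial list stood above background on no array. In bulk RNA, more cells of a type and more RNA per cell cannot be told apart, and the part of these cells in the members' changes was not tested. Of 9 heat shock genes, whose RNAs rise with rough handling, 0 passed with Compound 6 with the set term in limma (1 at an unadjusted p under 0.05) and 4 with the block.

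With Compound 2, Egr1 was the member that differed most. It was -4.76, -4.24 and -4.61 on arrays A, B and C, against -3.89, -3.56 and -3.88 on the vehicle arrays. The groups did not overlap, and the letters differed by -0.87, -0.68 and -0.72. The fitted change was -0.76 ± 0.27, with a limma adjusted p of 0.125 with the set term and 0.00212 with the letter as a block. Within the slide of letters A and B the difference was -0.77, and within that of letter C it was -0.72. Fitted on the arrays compared alone, the limma adjusted p was 0.0497.

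No member passed with Compound 2 with the set term. The count of calls in limma was 0 of 10, where 5.31% of all genes tested passed the adjusted threshold. At an unadjusted p under 0.05 were 3 members (Fosb, Fosl1 and Egr1), and 18.4% of all genes. With the letter as a block 3 members passed, where 17.3% of all genes did. Besides Egr1 they were Fosb, higher by 0.23 ± 0.089, and Jun, higher by 0.37 ± 0.23. The limma adjusted p of Fosb was 0.162 with the set term and 0.0428 with the block. For Jun it was 0.445 with the set term and 0.022 with the block. Fosb was -2.40, -2.25 and -2.38 with Compound 2 and -2.49, -2.60 and -2.63 with vehicle, without overlap. Jun was -1.92, -1.35 and -1.97 with Compound 2 and -2.09, -1.76 and -2.50 with vehicle, with letter B high in both and the groups overlapping. Fosl1 was -2.94, -3.07 and -2.96 with Compound 2 and -2.99, -3.37 and -3.33 with vehicle, higher in 3 of 3 letters (limma adjusted p 0.182, and 0.0642 with the block). Without vehicle A it passed, at 0.36 (limma adjusted p 0.0435). That was 1 of 6 fits that left out 1 array (0.17 to 0.36, limma adjusted p up to 0.457). Of the fibroblast markers 1 of 9 was higher, Col1a1 (0.44 ± 0.08), and of the leukocyte markers none of 10 passed in limma with the set term, with 3 at an unadjusted p under 0.05. The members' median change was 0.12, against 0.00291 over all genes tested.

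With Compound 9, limma called none of the 10 members in either fit. None had an unadjusted p under 0.05 with the set term, where 1.18% of all genes did. Over all genes tested 0% passed with the set term and 0.00468% with the block, so this comparison gave almost no calls on any gene. Egr1 was -3.67, -3.54 and -3.36 with Compound 9, inside or above the vehicle range and higher in 3 of 3 letters by 0.015 to 0.52. Its change was 0.25 ± 0.27 (95% interval -0.32 to 0.83). Fosl1 differed by 0.19 ± 0.097 (-0.011 to 0.40) and Fosb by -0.0055 ± 0.089 (-0.19 to 0.18). The median over the members was 0.13, against -0.00988 over all genes tested.

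**Figure D3:**
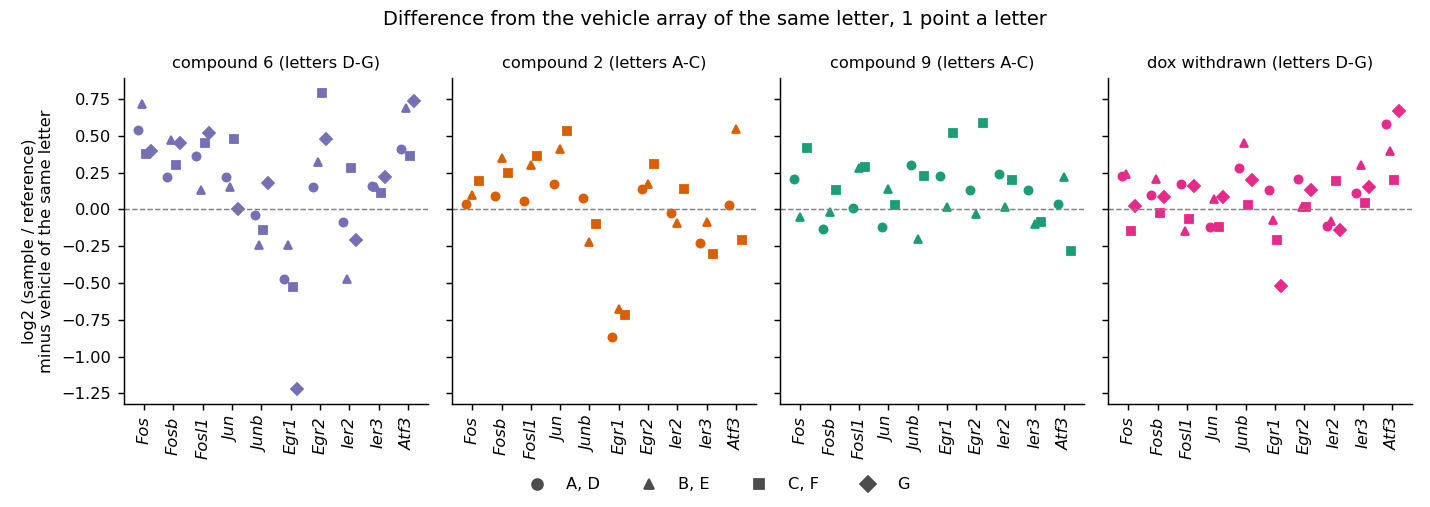
Log2 ratio minus that of the vehicle array of the same letter (y axis), 1 point a letter, for each member (x axis) with Compounds 6, 2 and 9 and after withdrawal. All 4 Compound 6 points and all 3 Compound 2 points of Egr1 lie below 0, and all 4 Compound 6 points of Fos, Fosb, Fosl1, Egr2 and Atf3 lie above it.

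Compounds 9 and 2 were run on the same letters and slides at the same dose and time, and both comparisons above share the vehicle arrays A to C. Egr1 was higher with Compound 9 than with Compound 2 in 3 of 3 letters, by 0.70 to 1.25, and the groups did not overlap. The difference was 1.01 ± 0.27 (95% interval 0.44 to 1.58), or 2.02-fold, with a limma adjusted p of 0.0379. With the letter as a block the limma adjusted p was 2.45e-04. Within the slide of letters A and B it was 0.89 and within that of letter C 1.25. This call with the set term was not firm: it was kept on leaving out 1 of the 6 arrays, Compound 2 B, and lost for each of the other 5 (0.90 to 1.08, limma adjusted p 0.0715 to 0.157), and lost with Agilent's ratios, the Cy3 channel alone, the series matrix or no set term. Egr1 was the 1 of 10 members that passed, where 4.81% of all genes did. With the block 3 members passed, where 15.9% of all genes did. The other 2 were lower with Compound 9, Fosb by -0.23 ± 0.089 (limma adjusted p with the block 0.0405) and Jun by -0.35 ± 0.23 (limma adjusted p with the block 0.0298).

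Compound 6 shared no letter with the other compounds, so it was compared with them through the vehicle arrays of each set. In all, 3 pairs of compounds were compared, and p-values were adjusted over genes and not over pairs. Against Compound 2, limma called 0 members, where 0.566% of all genes passed. None had an unadjusted p under 0.05, where 13.9% of all genes did. With the block Ier3 passed, at 0.36 ± 0.19 (limma adjusted p with the block 0.0317), where 9.22% of all genes did. Egr1 differed between these compounds by 0.14 ± 0.36, an interval of -0.62 to 0.90 that leaves room for a difference either way. Against Compound 9, limma called 0 members, where 6.54% of all genes passed. Fosb and Egr1 had an unadjusted p under 0.05, as did 21.5% of all genes. With the block 3 passed, where 21.7% of all genes did. Fosb was higher with Compound 6 by 0.36 ± 0.12 and Atf3 by 0.56 ± 0.41, and Egr1 was lower by -0.87 ± 0.36 (limma adjusted p with the block 0.015, 0.0233 and 0.00548). Fosb against Compound 9 also passed with the set term without Compound 6 D (0.42, limma adjusted p 0.0445) or vehicle F (0.43, limma adjusted p 0.00997). Those were 2 of 14 fits that left out 1 array (0.32 to 0.43, limma adjusted p up to 0.176).

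After withdrawal of doxycycline, the inducer of the mutant beta-catenin, limma called 0 of the 10 members, while 20.6% of all genes tested passed. None had an unadjusted p under 0.05, where 34.8% of all genes did. With the letter as a block 1 passed, where 39.1% of all genes did. It was Atf3, at -0.28, -0.49, 0.23 and -0.031 on the withdrawn arrays D to G against -0.86, -0.89, 0.032 and -0.71 with vehicle. Withdrawal was higher in 4 of 4 letters, by 0.20 to 0.67, and the groups overlapped at vehicle F. The change was 0.46 ± 0.27 (limma adjusted p 0.234, and 0.00261 with the block). Fos was -3.48, -3.42, -2.56 and -2.74 after withdrawal and differed by 0.085 ± 0.31 (95% interval -0.56 to 0.73). Junb differed by 0.24 ± 0.20 (-0.17 to 0.65) and was higher in 4 of 4 letters. Egr1 differed by -0.17 ± 0.24 (-0.66 to 0.33), Jun by -0.019 ± 0.20 (-0.44 to 0.40) and Fosl1 by 0.028 ± 0.084 (-0.15 to 0.20). The median over the members was 0.088, against -0.0107 over all genes tested. Of the heat shock genes, 4 of 9 were lower after withdrawal (median of the list -0.31).

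Compound 6 and withdrawal share the vehicle arrays D to G, and were also compared directly. Fosb and Fosl1 were higher with Compound 6, by 0.27 ± 0.077 (limma adjusted p 0.0254) and 0.34 ± 0.084 (limma adjusted p 0.0101). Neither gene's groups overlapped, with Fosb at -2.69, -2.65, -2.58 and -2.75 and Fosl1 at -3.25, -3.28, -3.31 and -3.24 on the withdrawn arrays. The Fosb call was lost without any one of Compound 6 E, F or G or withdrawn D or G (0.22 to 0.27, limma adjusted p 0.0507 to 0.0801). It was also lost with Agilent's ratios, the Cy3 channel alone, the series matrix, no set term or only the arrays compared (limma adjusted p 0.055 to 0.111), and so was kept in 10 of 20 alternatives. With Agilent's ratios Egr2 passed in its place (1.48, limma adjusted p 0.0343), as it did with the Cy3 channel alone (0.33, limma adjusted p 0.0117) and the series matrix (1.48, limma adjusted p 0.0383). The Fosl1 call was lost without every letter F array (0.28, limma adjusted p 0.0556) and with the Cy3 channel alone (0.27, limma adjusted p 0.056). These 2 of 10 members stand beside 15% of all genes. With the block 6 passed, where 34.1% of all genes did. Fos differed by 0.42 ± 0.31 and Egr2 by 0.34 ± 0.13, while Junb differed by -0.30 ± 0.20 and Egr1 by -0.45 ± 0.24 (limma adjusted p with the block 9.57e-04, 0.0268, 0.0255 and 0.012). Egr2 stood above background on no withdrawn array, so its level there is only a bound. In this comparison 3 of 10 leukocyte markers were higher with Compound 6 (Csf1r 0.96, Fcer1g 0.35 and Itgam 0.26), as were 2 of 9 fibroblast markers (Vim 0.45 and Col1a1 0.32) and 1 of 9 heat shock genes (Hsph1 1.02). The summed Cy3 intensity of the withdrawn arrays was 15800 to 20900 for the leukocyte list and 5130 to 5820 for the fibroblast list, and the part of these genes in the members' differences was not tested.

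The members differed in how much of their variation followed the letter and how much the treatment. Within letters D to G, the letter held 80.2% of the sum of squares of Fos over 12 arrays, 73.4% of that of Junb, 72.4% of Ier3, 57.9% of Jun, 57.7% of Atf3 and 55.8% of Egr1. For Fosl1 it held 5.95%, for Egr2 4.16% and for Fosb 22.3%, and there the treatment held 77.5%, 64.8% and 69.3%. The median gene had 26.7% between letters and 40.4% between treatments. Within letters A to C (9 arrays) the letter held 86.2% for Atf3, 82.7% for Fos and 73.1% for Jun, against 34.7% for the median gene. It held 64.3% for Ier3 and 56.1% for Junb. Egr1 stood at the other end there, with 8.51% between letters and 86.1% between treatments, and Fosb had 0.322% and 76.6%. So Fos, Jun, Junb, Ier3 and Atf3 varied mostly with the letter in both sets, and Fosb mostly with treatment in both. What a letter stands for is not given in the labels. These shares are a description with no test.

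**Figure D4:**
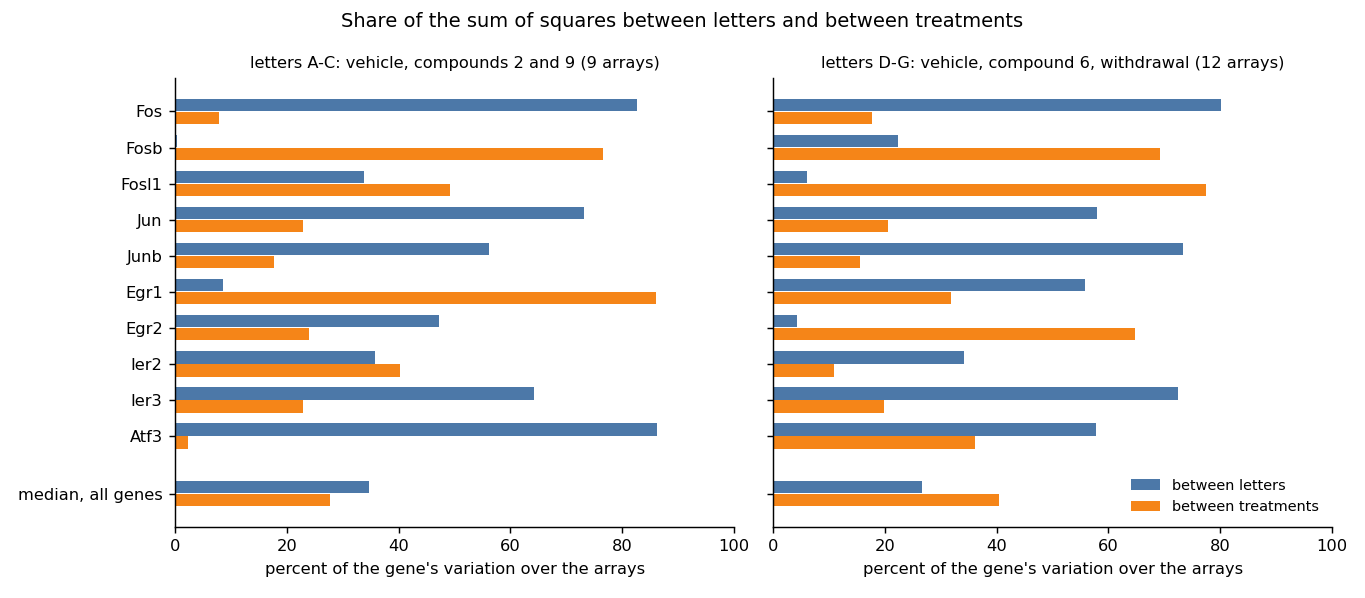
Percent of each member's sum of squares over the arrays (x axis) that lay between letters (blue) and between treatments (orange), for letters A to C on the left and D to G on the right, with the median of all genes tested below. Fos is at 82.7% and 80.2% between letters, and Fosb at 76.6% and 69.3% between treatments.

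The vehicle arrays show the same spread without any compound. Fos was -2.34, -1.67 and -2.34 on vehicle A, B and C, so it was higher on all 3 than on vehicle F, the highest of letters D to G. The mean over vehicles A to C exceeded that over D to G by 1.02 for Fos and 1.23 for Atf3, without overlap. Ier2 was lower on vehicles A to C, by -0.30, also without overlap, and Egr1 differed by -0.077 with overlap. The Egr2 ratio differed by -0.56 without overlap. Yet Egr2 stood well above background on vehicles A and B and on none of D to G, so which set held more Egr2 RNA is not settled. As letter set and scan cannot be told apart, these differences belong to either.

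Over the 21 arrays, each centred on the mean of its letter set, Fos followed Atf3 (Pearson r 0.721), Jun (0.682) and Junb (0.665), and followed Ier3 (0.299), Fosl1 (0.301) and Egr1 (0.357) less. Jun followed Atf3 (0.738), and Egr1 followed neither Jun (-0.0716) nor Atf3 (0.0327). Outside the lists, genes most like Fos included LOC100044874 (0.884), Cd14 (0.861), Clu (0.848) and Wdpcp (0.846), where Cd14 is a coreceptor for bacterial lipopolysaccharide and Clu encodes the chaperone clusterin. Those most like Jun were Ifrd1 (0.895), Prl4a1 (0.888), Nfkb2 (0.884), Naa35 (0.862) and Ppip5k1 (0.859), with Nfkb2 a subunit of NF-kB. Among those most like Atf3 were Oasl1 (0.924), Enpp3 (0.908), Rilp (0.899) and Fam160a1 (0.892). These are among the highest over the 21372 genes tested, on arrays that share letters, slides and treatments, given as a description.

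Around the 10 members, 73 of 82 other genes of the pathway were tested, grouped by role. With Compound 6, 16 rose and 10 fell. The feedback inhibitors, which shut the signal off again, had 8 of 16 higher and 1 lower, with a median change of 0.32. Dusp4, a nuclear phosphatase of the MAP kinases, rose by 1.09 ± 0.21, or 2.13-fold (limma adjusted p 9.26e-04). Spred2, an inhibitor of Ras signalling, fell by 0.48 ± 0.093 on the log2 scale (limma adjusted p 0.00117). The other risers, named after their values were seen, were Trib1 (0.72), Errfi1 (0.55), Dusp6 (0.51), Nfkbia (0.47), Dusp5 (0.40), Dusp2 (0.35) and Spry1 (0.30).

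Of the 17 kinases and factors that switch the genes on, 3 were higher and 6 lower with Compound 6 (median 0.012). Mkl1, a coactivator of SRF, fell by 0.30 ± 0.055 on the log2 scale (limma adjusted p 7.16e-04), and its other probe gave -0.20 ± 0.062 (limma adjusted p 0.0236). Of the 17 other early transcription factors 3 were higher and 1 lower, of the 9 growth factors and receptors 1 and 1, of the 6 regulators of RNA stability and translation 0 and 1, and of the 8 secreted and surface targets 1 and 0. Hbegf, a ligand of the EGF receptor, was at 0.76, Plaur, the urokinase receptor, at 1.01 and Nr4a1, an orphan nuclear receptor, at 0.62, all named after their values were seen. These 26 of 73 stand beside the 24.8% of all genes that passed, and with the block 40 of 73 passed, where 41.3% of all genes did.

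With Compound 2, 3 of the 73 rose and 1 fell, beside the 5.31% of all genes that passed, and 24 passed with the block, where 17.3% of all genes did. Mkl1 was again lower (-0.31 ± 0.064, limma adjusted p 0.00736). Epgn, the EGF receptor ligand epigen, rose by 0.96 ± 0.22 (limma adjusted p 0.0137) and Spry1, a feedback inhibitor of receptor kinases, by 0.49 ± 0.12 (limma adjusted p 0.0172). The other probe of Mkl1 gave -0.24 ± 0.072 (limma adjusted p 0.0655). With Compound 9, limma called 0 of the 73 in either fit, with 0 at an unadjusted p under 0.05, beside 1.18% of all genes. Between Compounds 9 and 2, 1 of the 73 was higher and 4 were lower (24 calls with the block), beside 4.81% and 15.9% of all genes. Epgn was lower with Compound 9 by -1.13 ± 0.22 and Spry1 by -0.56 ± 0.12, and Mkl1 was higher by 0.31 ± 0.064 (limma adjusted p 0.00484, 0.00774 and 0.00801). The other probe of Mkl1 did not pass here (0.20 ± 0.072, limma adjusted p 0.133).

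After withdrawal 8 of the 73 rose and 4 fell, and 28 passed with the block, beside 20.6% and 39.1% of all genes. Myc, an early gene and a direct target of beta-catenin, fell by 2.08 ± 0.22 on the log2 scale (limma adjusted p 1.5e-05). Zfp36l2, which promotes decay of AU-rich RNAs, fell by 0.96 ± 0.13 (limma adjusted p 2.13e-04), and Nab2, a corepressor that binds Egr proteins, rose by 0.42 ± 0.096 (limma adjusted p 0.00496). The other probe of Nab2 gave 0.28 ± 0.12 (limma adjusted p 0.11). Compound 6 against withdrawal gave 10 higher and 10 lower of the 73 (39 calls with the block), beside 15% and 34.1% of all genes. They were led by Myc (1.96 ± 0.22), Erbb2, a partner of the EGF receptor (-0.44 ± 0.062), and Dusp4 (1.30 ± 0.21). Against Compound 9, Compound 6 gave 2 higher and 2 lower (28 calls with the block), beside 6.54% and 21.7% of all genes. Among them were Spred2 at -0.50 ± 0.14, Mkl1 at -0.30 ± 0.084 and Trib1 at 0.79 ± 0.23. The other probe of Mkl1 did not pass here (-0.17 ± 0.095, limma adjusted p 0.338). Other probes of Trib1 gave 0.19 ± 0.17 and 0.76 ± 0.18 (limma adjusted p 0.59 and 0.0205). Against Compound 2 limma called 0 of the 73, and 9 with the block, beside 0.566% and 9.22% of all genes. At an unadjusted p under 0.05 were 8 of the 73, beside 13.9% of all genes.

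**Figure D5:**
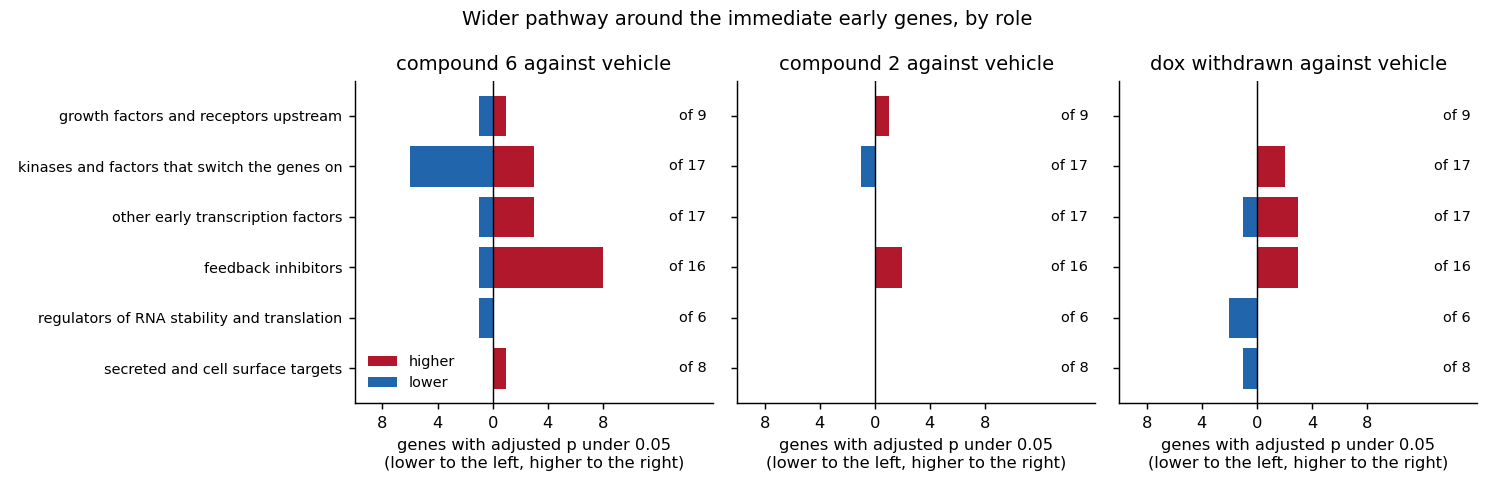
Number of genes with adjusted p under 0.05 (x axis, higher to the right in red and lower to the left in blue) among the genes tested in each role (y axis) for Compound 6, Compound 2 and withdrawal against vehicle. The feedback inhibitors with Compound 6 have 8 higher and 1 lower of 16.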

How the data were processed

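The 10 members, the pathway list and the marker lists were chosen with earlier results of these data known. Per the file headers, the deposited scanner files hold spot intensities and a log10 ratio of reference over sample from Agilent Feature Extraction 10.7.3.1, with probe positions in mm9. Log2 ratios in the deposited series matrix run as sample over reference, made with a tool not named in the labels or headers. Of 62976 spots, 3671 control spots were left out. In R 4.3.3 with the packages limma 3.58.1 and data.table (version 1.17.8), intensities were corrected by normexp (offset 50), normalised by loess within each array and averaged per probe. A probe was kept if its Cy3 spot was well above background on 3 arrays or more (29631 of 55681), and the brightest probe stood for its gene (21372 genes). The share of spots well above background in Cy3 was 42.6% to 51.9%.

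The 21 arrays entered 1 limma fit with terms for the 5 groups and the letter set (A to C, D to G), and 8 comparisons were tested, two-sided, with Benjamini-Hochberg adjustment over all genes and a threshold of 0.05. The labels do not say whether arrays of a group come from separate cultures or animals, so the p-values rest on the spread between these samples, which may be technical. Letters were taken from the titles. For the 21 pairs that share a letter across groups, deviations from the group means correlated at 0.209 to 0.748 (median 0.529), against a median of -0.179 for other letters. A second fit took the letter as its block, without the set, and its calls are given beside the others. No 2 arrays were identical (highest correlation 0.996). The rule for named genes took all 10 members, the 3 pathway genes with the smallest adjusted p in each comparison, and the 5 genes outside the lists most correlated with Fos, Jun and Atf3, of which some are not reported here. Alternatives covered the ratio, the channel, the filter, the set term, blocks and left-out arrays. Plots were made with matplotlib 3.10.9 in Python 3.11.15.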

Additional observations from a re-analysis of the deposited data

Results flagged for a closer look

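Jun on the array Compound 6 F was -1.13, far above the other 3 Compound 6 arrays (-1.74, -1.85 and -1.79). Its gap to the nearest array took up more of the group's range than Dixon's 95% critical value allows. Of 30 groups of 4 arrays tested over the 10 members, 1 stood out in this way, and chance does so in about 1 of 20.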

How the results depend on the processing

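Counts of immediate early genes called changed as follows, and the cause was not tested. With Agilent's ratios and with the series matrix, Compound 9 against 2 gave 0. With the Cy3 channel alone, Compound 6 against vehicle gave 1, Compound 9 against 2 gave 0 and Compound 6 against withdrawal 1. With no set term, Compound 2 against vehicle gave 3, Compound 9 against 2 gave 0, Compound 6 against 2 gave 1, Compound 6 against 9 gave 3 and Compound 6 against withdrawal 1. With the letter as a replicate block the counts were 1 for withdrawal, 3 for Compound 2, 6 for Compound 6, 3 for Compound 9 against 2, 1 for Compound 6 against 2, 3 for Compound 6 against 9 and 6 for Compound 6 against withdrawal. Fitted on only the arrays compared, Compound 2 gave 1 and Compound 6 against withdrawal 1. Without every letter F array, Compound 2 gave 1, Compound 6 gave 2 and Compound 9 against 2 gave 2. Compound 6 against 9 then gave 1 and Compound 6 against withdrawal 1. With only probes above background on all arrays, which leaves out Egr2, Compound 6 gave 2 of 9. Leaving out 1 array at a time gave 0 to 1 for Compound 2, Compound 9 against 2 and Compound 6 against 9, and 1 to 3 for Compound 6 against withdrawal, where Egr2 was gained without Compound 6 D. For Compound 6 against vehicle the count was 2 without Compound 6 F or vehicle G, where Egr2 was lost. It was 4 without vehicle D or E, where Egr1 was gained as lower, and 4 without vehicle F, where Atf3 was gained.

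Of single members, the calls of Fosb and Fosl1 with Compound 6 against vehicle were kept in 19 of 20 alternatives each (0.22 to 0.55 and 0.25 to 0.72), and that of Egr2 in 16 of 19 (0.32 to 1.96). Against withdrawal, Fosb was kept in 10 of 20 and Fosl1 in 18 of 20. Without the set term, Fos and Atf3 differed by 0.07 and 0.02 with Compound 6. Over all genes, Compound 6 against vehicle gave 5305 calls, 8822 with the block, 3081 on the arrays compared alone and 7337 without vehicle F. The dim signals of Egr2, Fosl1 and Fosb limit their fold changes, which the offset shrinks.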
